A study of Mus musculus with 40 samples.

Results

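Mice born germ-free and colonised at weaning were compared with conventionally raised mice 1 hr after a social encounter, over all genes measured in the amygdala. The comparison sets the 8 exGF-SI libraries against the 8 CON-SI libraries, 16 of the 40 libraries of the series, and 14937 of the 43629 genes in the count table had enough reads to be tested. All animals were male Swiss Webster mice of 10 weeks of age, without any engineered allele, and the amygdala came from the left hemisphere. CON-SI mice were offspring of conventional breeding pairs. exGF-SI mice were offspring of germ-free pairs that left the germ-free unit after weaning and were kept on bedding that CON mice had used. Both groups went through the test with 3 chambers, in which a mouse may approach a conventional conspecific or an object of similar size. Each of these libraries was 1 animal. Naïve CON and naïve exGF mice, of the same strain, sex and age but without the test, were pooled into 4 libraries per group (2 or 3 animals each by the labels, 2 by the study's methods), and 12 GF-SI libraries came from single mice that stayed germ-free through the test. The breeding stock differed between CON and exGF mice along with the early absence of microbes, so a difference between breeding stocks and an effect of the germ-free weeks before weaning cannot be told apart in this design.

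The amygdala is a group of nuclei in the temporal lobe that weighs social and threatening stimuli. Neurons that fire strongly transcribe immediate early genes within minutes, among them Fos and Egr1, and these switch on later effector genes. A microbiota shapes the maturation of microglia, the resident phagocytes of the brain, and germ-free rearing followed by colonisation at weaning is used to separate the early window of life from what a microbiota does later. The question of the comparison is which genes still differ after a social stimulus once a microbiota has been acquired late.

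Library totals were between 10959458 and 17465387 read pairs counted in CON-SI and between 10909751 and 15915149 in exGF-SI, so depth was alike in the groups. Levels are given as CPM, the counts of a gene per 1000000 counts of its library, after TMM scaling over the 40 libraries. A gene is said to be called, higher or lower, where the edgeR quasi-likelihood test gave an adjusted p under 0.1, the threshold that the study used. All p-values measure only the spread between these libraries. exGF-S7 stood apart in ribosomal RNA, with 9.25% of its counts on Gm42418, a ribosomal RNA repeat, against 1.26% in CON-S7 and at most 0.178% in the other 14. The same exGF-S7 library had the lowest exGF-SI level of Mid1, Pign and Tpm3, at or near the CON-SI levels given with these genes, but the highest of Coq2 and the lowest of Gm6166, away from CON-SI. Whether this animal or its label differs from the rest of its group was not tested. Without it 200 genes were called. Among the naïve pools Gm42418 took 32.3% and 18.5% of the counts in 2 of the 4 CON pools and 14.3% and 6.23% in 2 of the 4 exGF pools, and less than 0.1% in the other 4. Markers of neurons, astrocytes and oligodendrocytes were present in all 16 libraries, and the 13 marker genes of amygdala nuclei, of which 11 were tested, summed to 295 to 578 CPM in CON-SI and 326 to 635 CPM in exGF-SI. Striatum markers summed to 307 to 420 CPM and 321 to 386 CPM. Choroid plexus markers, in contrast, were high in 3 exGF-SI libraries, which is described with those genes.

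Of the 14937 genes tested, 195 were called (1.31%), 126 of them higher in exGF-SI (0.844%) and 69 lower (0.462%). The count was 558 with DESeq2 and ranged from 57 without exGF-S10 to 364 without CON-S7 when 1 library was left out. The differences were mostly small. The median log2 difference of the genes called higher was 0.32, with a range of 0.16 to 3.37, and that of the genes called lower was -0.42, with a range of -4.62 to -0.17. Past 0.5 on the log2 scale there were 52 genes (0.348%), split into 26 higher and 26 lower. At an unadjusted p under 0.05 there were 2022 genes (13.5%), 1037 of them higher and 985 lower. Over all genes tested 7101 log2 differences lay above 0 and 7836 below it. These are the background for the counts in gene lists below. In 32 genes tested (0.214%) the lowest library of one group lay above the highest of the other, and 30 of these were among the 195, 20 of them higher in exGF-SI and 10 lower. By leaving out each of the 16 libraries in turn, 50 genes were called every time.

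The direction of a call went with the base composition of the gene. The median GC content of the exons was 42.6% in the genes called higher, 55.4% in those called lower and 49.8% in all genes tested. Among the 2967 genes of the lowest quintile of GC content, 79 were called higher and 2 lower, and among the 2966 genes of the highest quintile 3 were called higher and 33 lower. The median log2 difference of all genes fell from 0.10 in the lowest quintile to -0.11 in the highest. In the naïve mice the same medians were -0.01 and 0.02. Per library, the slope of the log2 level on GC content was above 0 in 7 of 8 CON-SI libraries and below 0 in 7 of 8 exGF-SI libraries, from -0.00170 to 0.154 per 10 percentage points in CON-SI and from -0.170 in exGF-S10 to 0.0163 in exGF-SI. With a correction for GC content and length in each library, 46 genes were called, 28 higher and 18 lower, of which 43 were among the 195. Of the 52 genes past 0.5 on the log2 scale 26 were still called after the correction, and of the 143 smaller differences 17 were. Whether the slope comes from the animals or from the preparation of the libraries was not tested, and a gene described below kept its call with the correction unless the loss is stated.

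**Figure D1:**
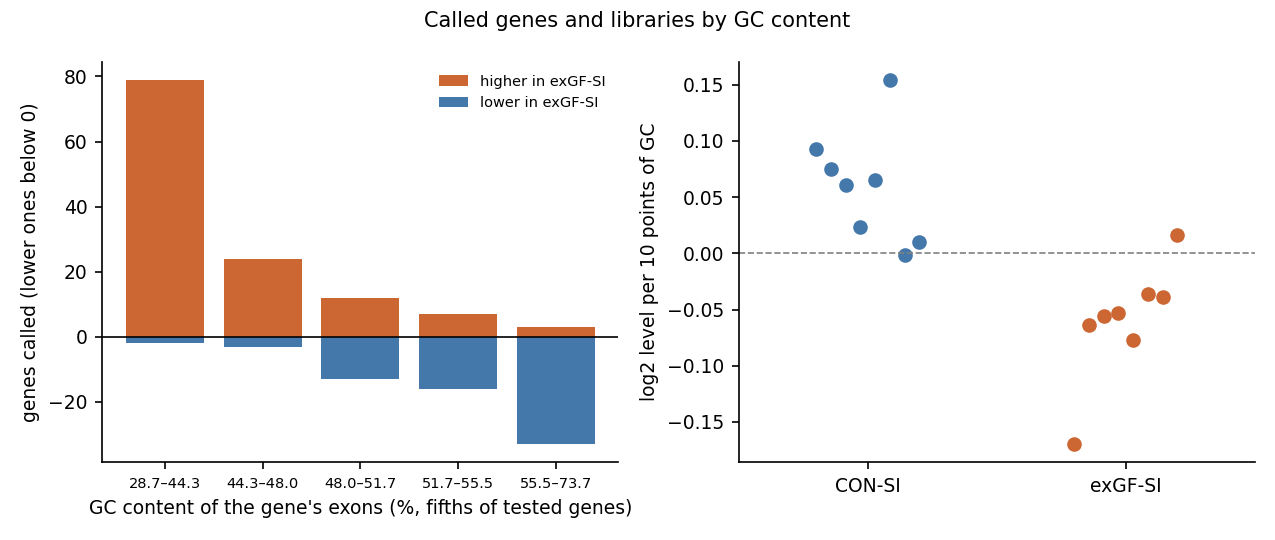
Left, numbers of genes called higher (above 0) and lower (below 0) in exGF-SI than in CON-SI in quintiles of the GC content (%) of the exons. Right, slope of the log2 level on GC content (log2 per 10 percentage points) in each of the 8 CON-SI and 8 exGF-SI libraries; 7 CON-SI points lie above 0 and 7 exGF-SI points below it.

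2 small guide RNAs were among the genes with the smallest p, 1 in each direction. Such RNAs of the C/D type guide 2'-O-methylation of other RNAs, those of Cajal bodies (scaRNAs) on spliceosomal snRNAs and those of the nucleolus (snoRNAs) on ribosomal RNA. Gm22009 is annotated as a scaRNA of 343 bases at chr3:69085105-69085447 (GRCm38, minus strand), between exons of Kpna4, and Gm23547 as a snoRNA of 271 bases at chr6:124715232-124715502 (GRCm38, plus strand), overlapping exons of Phb2. Both classes are those of the annotation, and which RNA each of these genes guides was not tested. Their sequences are shown because the reads of such short, embedded genes depend on where the annotation ends. In the GENCODE vM21 transcripts below (bases 1 to 300 of Gm22009 and the whole of Gm23547), capitals mark TGATGA, a match to the box C letters, and CTGA, the box D letters, searched on the transcript strand only.

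Gm22009: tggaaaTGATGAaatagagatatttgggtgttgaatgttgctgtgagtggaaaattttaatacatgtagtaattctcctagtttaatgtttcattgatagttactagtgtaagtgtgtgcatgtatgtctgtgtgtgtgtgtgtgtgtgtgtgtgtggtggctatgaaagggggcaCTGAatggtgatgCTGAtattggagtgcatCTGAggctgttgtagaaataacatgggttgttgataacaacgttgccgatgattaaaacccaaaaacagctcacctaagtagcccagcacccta
Gm23547: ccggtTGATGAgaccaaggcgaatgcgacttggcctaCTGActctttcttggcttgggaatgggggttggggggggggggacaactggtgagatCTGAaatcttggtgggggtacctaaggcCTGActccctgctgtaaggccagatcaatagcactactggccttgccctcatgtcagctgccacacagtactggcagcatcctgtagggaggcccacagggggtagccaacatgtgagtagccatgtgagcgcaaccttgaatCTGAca

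Each of them holds TGATGA 1 time near its start and CTGA 4 times, once close to the 3′ end, which for Gm22009 lies beyond the bases shown. Of the 1558 annotated snoRNA and scaRNA transcripts, 26.5% hold TGATGA, 79.3% hold CTGA and 25.6% hold both.

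Gm22009 was between 17.5 and 68.2 CPM in CON-SI, with a median of 33.0, and between 69.3 and 113 CPM in exGF-SI, with a median of 93.2. The groups did not overlap. The log2 difference was 1.31 (SE 0.201, adjusted p = 0.00675) and it was called with the GC correction too. In naïve mice it was at 37.8, 18.7, 28.2 and 30.8 CPM in CON and at 36.1, 20.4, 28.6 and 22.8 CPM in exGF, so the naïve libraries overlapped fully, with a log2 difference of -0.10 (SE 0.289). In GF-SI mice it had a mean of 70.3 CPM. Its host gene Kpna4, an importin that carries proteins into the nucleus, had a log2 difference of 0.25 (SE 0.109, adjusted p = 0.325). Gm23547 went the other way, from 2.47 to 7.87 CPM (median 5.21) in CON-SI and from 1.05 to 3.14 CPM (median 1.81) in exGF-SI. The ranges overlapped slightly, and its log2 difference was -1.48 (SE 0.226, adjusted p = 0.00675). The naïve pools of Gm23547 were at 2.66 to 4.32 CPM in CON and at 2.00 to 2.50 CPM in exGF. Phb2, the mitochondrial prohibitin that contains it, differed by -0.08 on the log2 scale (SE 0.0560, adjusted p = 0.547). Of the stretches of 25 bases of Gm23547, 53.0% also occur in Phb2 transcripts. Reads of the pair could thus be counted for either or for none. The short RNAs were counted from fragments long enough for library preparation, and what share of them are mature RNAs was not tested.

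**Figure D2:**
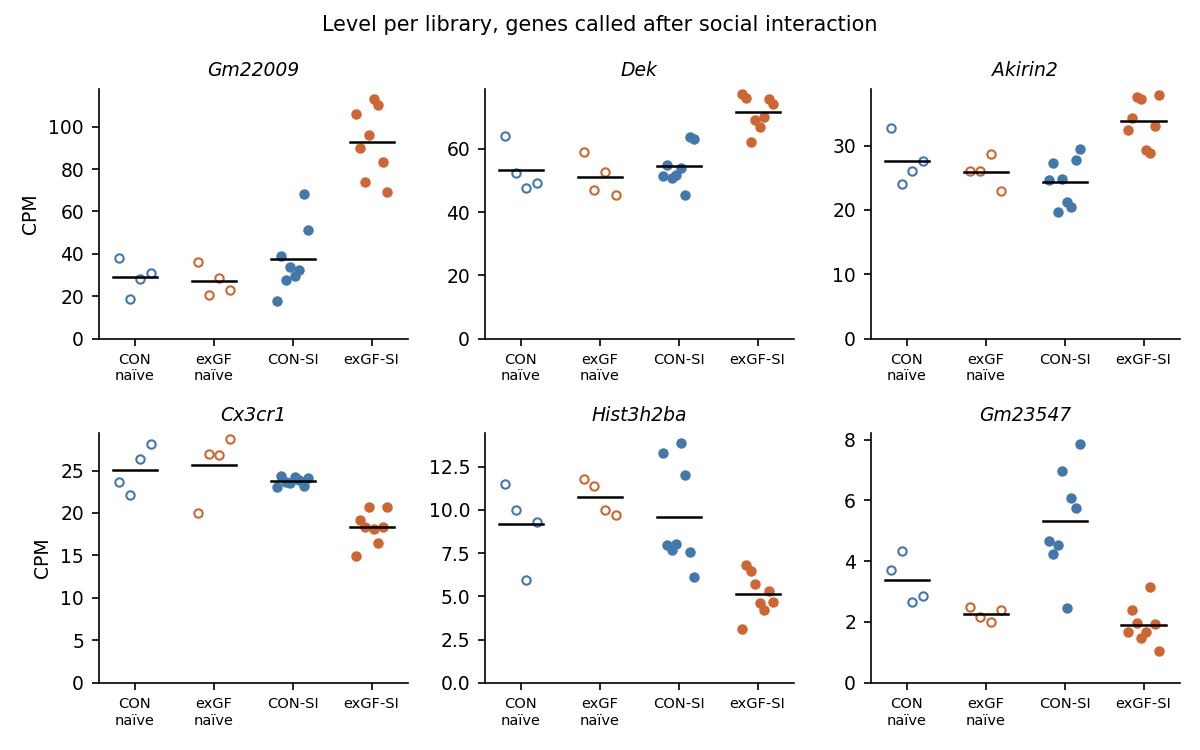
Level (CPM) of 6 genes per library in naïve pools (open points, 4 per group) and single mice after social interaction (filled points, 8 per group), with the group mean as a line. Gm22009, Dek and Akirin2 were called higher and Cx3cr1, Hist3h2ba and Gm23547 lower in exGF-SI, while the open points of CON and exGF largely overlap except in Gm23547.

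Many of the largest differences were already there in naïve mice, which are independent animals. Of the 195 genes, 133 (68.2%) differed in the same direction between naïve exGF and naïve CON, against 51.9% of all genes tested. With a naïve edgeR p under 0.05 as well, 31 did (15.9%, 22 higher and 9 lower), against 2.97% of all genes tested, and none of the 195 had a naïve p under 0.05 in the opposite direction. The naïve difference on its own called 9 of 16111 genes (0.0559%), and 699 (4.34%) were under an unadjusted p of 0.05. 2 of the 9 were also called after social interaction in the same direction, Gm6166 and Pign. Without the 4 naïve pools rich in ribosomal RNA 0 genes were called in naïve mice by edgeR, and 147 of the 195 (75.4%) had the same direction, against 53.5% of all genes tested.

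**Figure D3:**
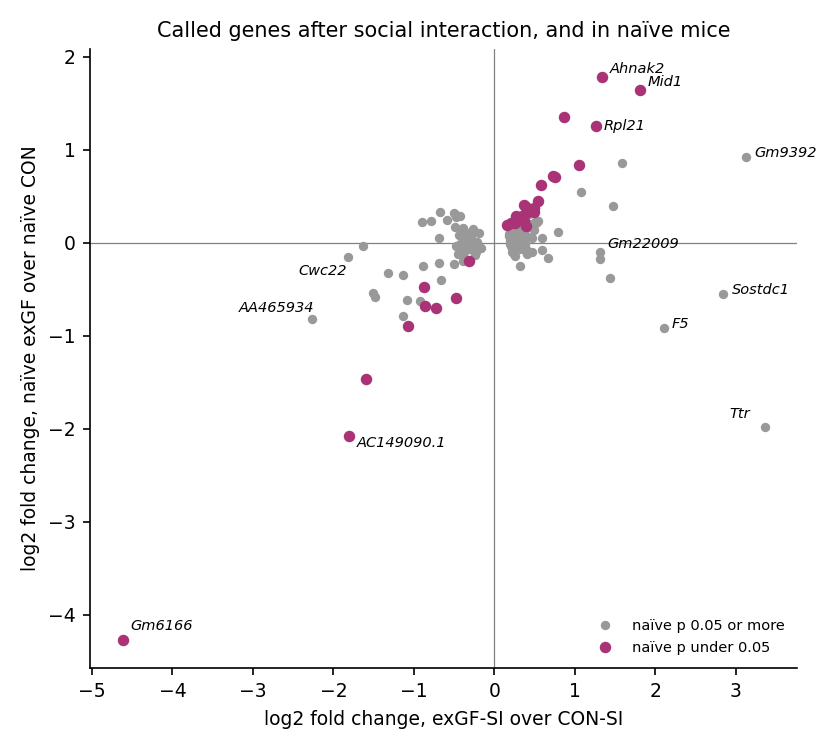
Log2 difference of exGF-SI over CON-SI (x axis) against that of naïve exGF over naïve CON (y axis) for the 195 genes called after social interaction, with those of a naïve p under 0.05 in purple. The purple points, Gm6166, AC149090.1, Mid1 and Ahnak2 among them, all lie in the quadrants of equal sign, and Ttr, F5 and Sostdc1 lie at the lower right.

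Mid1, a microtubule-binding E3 ubiquitin ligase encoded on the X chromosome, was higher in exGF mice in both settings. It was at 2.74 to 6.54 CPM in CON-SI (median 3.77) and at 2.04 to 20.2 CPM in exGF-SI (median 15.1). Apart from exGF-S7 at 2.04 CPM, the exGF-SI libraries were all at or above 11 CPM and did not overlap CON-SI. The log2 difference was 1.81 (SE 0.296, adjusted p = 0.0113). The naïve CON pools were at 4.60, 2.73, 4.53 and 2.45 CPM and the naïve exGF pools at 16.2, 14.6, 6.93 and 6.56 CPM, a log2 difference of 1.64 (SE 0.478, p = 0.00141 by edgeR). GF-SI mice had a mean of 2.60 CPM, and their log2 difference from the same CON-SI libraries was -0.61 (adjusted p = 0.285). The naïve GF pools were split, with 2 at 1.87 and 2.20 CPM and 2 at 10.4 and 14.6 CPM. Other genes described below were unlike Mid1 in GF-SI mice. The GF-SI medians of Pign (24.4 CPM), Cfap74 (10.3 CPM) and Rpl7a (41.9 CPM) lay nearer to exGF-SI than to CON-SI. Those of AC149090.1 (17.6 CPM), Gm6166 (0.353 CPM) and Pla2g7 (79.2 CPM) did too, and Coq2 lay between the groups at 39.3 CPM. Mid1 was the one called gene of 10 in a list of genes noted for germ-free origin in earlier results of these data, which is therefore no independent evidence.

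Coq2, the prenyltransferase of coenzyme Q synthesis, was at 19.3 to 35.7 CPM in CON-SI (median 32.1) and at 46.1 to 50.4 CPM in exGF-SI (median 47.1). The groups stood wholly apart, and the exGF-SI libraries were close to one another while 3 CON-SI libraries lay between 19.3 and 20.7 CPM and 5 between 31.1 and 35.7 CPM. The log2 difference was 0.73 (SE 0.119, adjusted p = 0.0113). Naïve levels were 26.9, 22.1, 30.9 and 21.5 CPM in CON and 44.2, 35.1, 44.7 and 43.5 CPM in exGF, a log2 difference of 0.72 (SE 0.194) without overlap. Pign, which adds ethanolamine phosphate to the glycosylphosphatidylinositol anchor of membrane proteins, was at 14.2 to 18.7 CPM in CON-SI (median 15.3) and at 14.8 to 28.9 CPM in exGF-SI (median 23.8). All exGF-SI libraries except exGF-S7, at 14.8 CPM, lay above CON-SI, for a log2 difference of 0.58 (SE 0.102, adjusted p = 0.0173). Its naïve difference was 0.62 (SE 0.123, adjusted p = 0.0355), with pools at 14.4 to 16.9 CPM in CON and 22.6 to 25.8 CPM in exGF. Cfap74, a protein of the ciliary axoneme, was at 2.94 to 8.88 CPM in CON-SI (median 4.10) and at 7.36 to 13.4 CPM in exGF-SI (median 10.0). 1 library of each group lay within the range of the other, and the log2 difference was 1.05 (SE 0.203, adjusted p = 0.0307), with 0.84 (SE 0.263) in naïve mice.

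Smaller numbers of reads lay behind 2 further genes of this kind. Ahnak2, a large scaffold protein, had a log2 difference of 1.34 (SE 0.332, adjusted p = 0.0801) and 1.78 (SE 0.456) in naïve mice, at 0.32 to 1.78 CPM in CON-SI (median 0.649) and 0.843 to 3.27 CPM in exGF-SI (median 1.94). Krt12, a keratin known from the cornea, differed by 0.87 (SE 0.217, adjusted p = 0.0804) and by 1.35 (SE 0.337) in naïve mice. Krt12 was not called with the GC correction (adjusted p = 0.108). With 1 of the 16 libraries left out in turn, Ahnak2 was called 6 times and Krt12 4 times. Rpl21, a protein of the large ribosomal subunit, was at 92.5 to 395 CPM in CON-SI (median 111) and at 269 to 545 CPM in exGF-SI (median 310). CON-S11 alone, at 395 CPM, reached into the exGF-SI range, the log2 difference was 1.26 (SE 0.290, adjusted p = 0.0638) and that of naïve mice was also 1.26 (SE 0.386). It was not called with the GC correction (adjusted p = 0.113).

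Pla2g7 was lower in exGF mice in both settings. It encodes the lipoprotein-associated phospholipase that cleaves platelet-activating factor. It was at 69.7 to 133 CPM in CON-SI (median 116) and at 48.9 to 75.7 CPM in exGF-SI (median 59.6). CON-S6, at 69.7 CPM, alone lay below the 2 highest exGF-SI libraries, and the log2 difference was -0.86 (SE 0.119, adjusted p = 0.00406). Naïve pools were at 139, 67.5, 120 and 133 CPM in CON and 77.0, 55.1, 65.4 and 90.2 CPM in exGF, a log2 difference of -0.68 (SE 0.192). Rpl7a, of the large ribosomal subunit, was at 75.5 to 96.4 CPM in CON-SI (median 85.8) and at 35.0 to 77.1 CPM in exGF-SI (median 53.1). exGF-S6 alone reached the CON-SI range, the log2 difference was -0.72 (SE 0.121, adjusted p = 0.0113), and that of naïve mice was -0.70 (SE 0.208). Of the stretches of 25 bases of Rpl7a, 46.9% also occur in processed copies of it elsewhere in the genome. Reads of these genes could thus be counted for either or for none. The 3 copies that share the most with Rpl7a had mean levels of 0 CPM in CON-SI and at most 0.0173 CPM in exGF-SI.

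AC149090.1, a gene on the unplaced scaffold JH584304.1 (positions 52190 to 59690, minus strand), was at 31.4 to 95 CPM in CON-SI (median 62.3) and at 7.86 to 30.8 CPM in exGF-SI (median 16). The groups did not overlap, and the log2 difference was -1.81 (SE 0.267, adjusted p = 0.00675), without a GC value for the correction. In naïve mice the CON pools, at 45.9 to 85.9 CPM, lay above the exGF pools, at 11.1 to 19.6 CPM, for a log2 difference of -2.08 (SE 0.501). 4930447C04Rik differed by -1.59 (SE 0.339, adjusted p = 0.0486) and by -1.46 (SE 0.517) in naïve mice. Coch, which encodes the extracellular protein cochlin, differed by -1.07 (SE 0.269, adjusted p = 0.0832) and by -0.90 (SE 0.430) in naïve mice, and its call was lost with the GC correction (adjusted p = 0.163). Dcps, the enzyme that degrades the cap left by mRNA decay from the 3' end, was chosen after its values were seen. It was at 5.47 to 8.08 CPM in CON-SI (median 7.04) and at 4.24 to 5.61 CPM in exGF-SI (median 4.99), a log2 difference of -0.47 (SE 0.0995, adjusted p = 0.0486) beside -0.59 (SE 0.152) in naïve mice, without a call after the GC correction (adjusted p = 0.155).

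**Figure D4:**
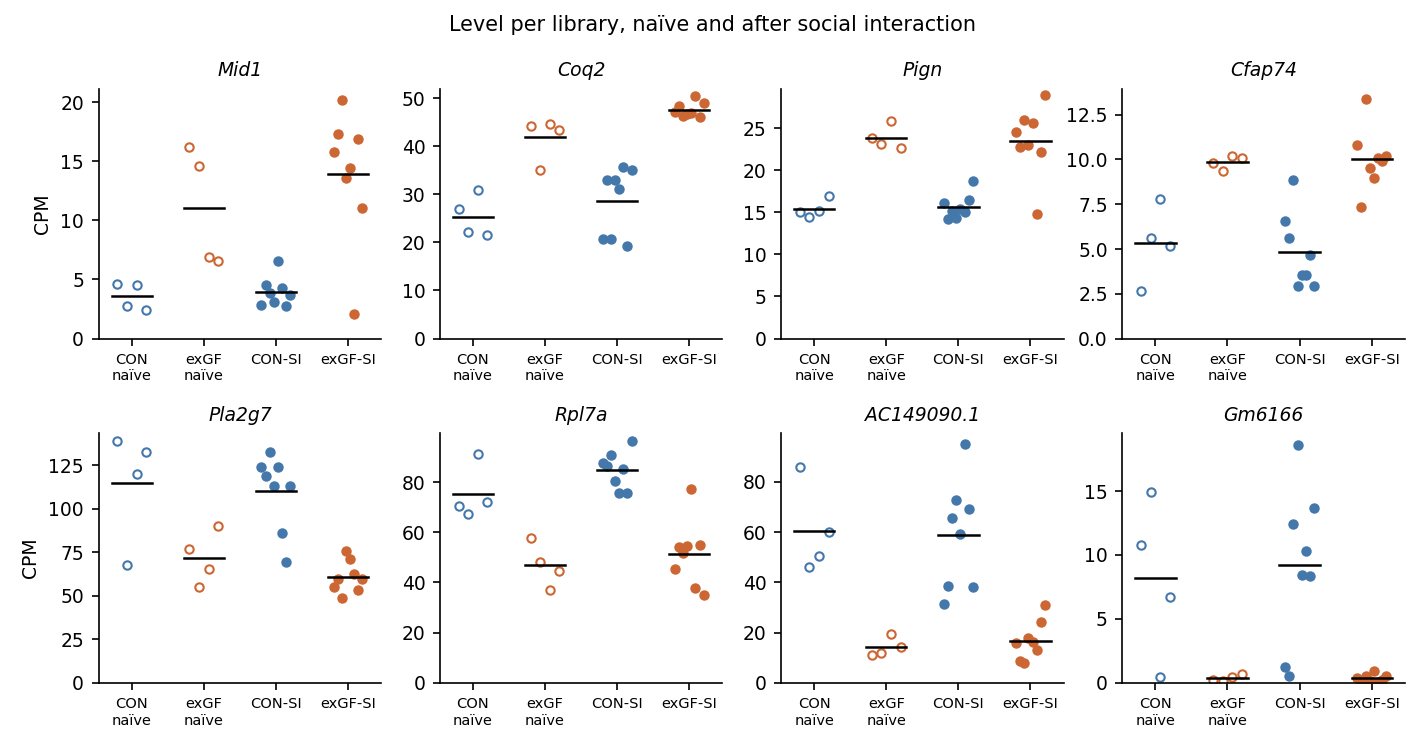
Level (CPM) of 8 genes per library in naïve pools (open points, 4 per group) and single mice after social interaction (filled points, 8 per group), with the group mean as a line. Mid1, Coq2, Pign and Cfap74 are higher and Pla2g7, Rpl7a, AC149090.1 and Gm6166 lower in exGF mice in both settings, and single libraries such as exGF-S7 in Mid1 and Pign lie with the CON groups.

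Several of the largest differences were in processed copies of other genes. Such copies arise when an mRNA is reverse transcribed and inserted back into the genome, and a read that fits both places can be counted for either or for none. The largest fall of all was Gm6166, a copy of Fabp5 at chr9:57483963-57484371 (GRCm38, plus strand), and the second largest rise among the called genes was Gm9392, a copy of Rap1a at chr7:46820864-46821417 (minus strand), which was chosen after its values were seen since its mean is under 1 CPM. A stretch of 120 bases of each is shown beside its parent, from the GENCODE vM21 transcripts, since so few bases tell the reads of the pair apart. Capitals mark the bases that differ in the stretch, with positions counted from 1 at the start of each transcript.

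Gm6166, positions 261 to 380: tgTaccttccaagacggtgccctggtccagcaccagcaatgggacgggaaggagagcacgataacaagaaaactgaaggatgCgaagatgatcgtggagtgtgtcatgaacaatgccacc
Fabp5, positions 351 to 470: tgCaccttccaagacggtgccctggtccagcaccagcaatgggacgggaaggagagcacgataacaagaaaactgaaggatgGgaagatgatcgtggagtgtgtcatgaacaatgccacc
Gm9392, positions 64 to 183: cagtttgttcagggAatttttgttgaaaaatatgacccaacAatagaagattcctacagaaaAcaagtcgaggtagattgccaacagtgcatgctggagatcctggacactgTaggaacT
Rap1a, positions 189 to 308: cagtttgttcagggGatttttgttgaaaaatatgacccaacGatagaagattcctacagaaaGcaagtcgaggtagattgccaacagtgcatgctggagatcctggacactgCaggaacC

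Over its whole length Gm6166 had 5 mismatches to Fabp5 in 407 aligned bases (98.8% identity, 1 gap), and Gm9392 had 8 to Rap1a in 554 (98.6% identity, no gap). Gm6166 was at 0.553 to 18.6 CPM in CON-SI (median 9.33) and at 0.0785 to 0.895 CPM in exGF-SI (median 0.289). CON-S10 and CON-S11, at 1.21 and 0.553 CPM, were low beside the other 6 CON-SI libraries, which had 8.37 CPM or more, and the log2 difference was -4.62 (SE 0.615, adjusted p = 0.00368). Before social interaction the pools were at 10.8, 14.9, 0.444 and 6.72 CPM in CON and at 0.217, 0.114, 0.462 and 0.684 CPM in exGF, a log2 difference of -4.27 (SE 0.841, adjusted p = 0.0355). 2 CON-SI libraries and 1 naïve CON pool were thus near the exGF level. Fabp5, the fatty acid-binding protein that is the parent, had a log2 difference of 0.36 without a call (SE 0.0976, adjusted p = 0.108). The pair summed to 41.0 ± 5.92 CPM in the CON-SI libraries and to 41.3 ± 4.76 CPM in the exGF-SI libraries (each SD, n = 8, exact permutation test, 2-sided, p = 0.902). The copy held 22.4% of the reads of the pair in CON-SI and 0.872% in exGF-SI. Whether reads counted on the copy were transcribed from it was not tested.

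Gm9392 was at 0 to 0.799 CPM in CON-SI (median 0.0564) and at 0.959 to 1.91 CPM in exGF-SI (median 1.64). The groups did not overlap, and the log2 difference was 3.13 (SE 0.482, adjusted p = 0.00675). Naïve pools were at 0.530, 0.834, 0.533 and 0.140 CPM in CON and at 0.978, 0.572, 1.39 and 0.855 CPM in exGF. The parent Rap1a, a small GTPase of cell adhesion, differed by 0.06 on the log2 scale (SE 0.0697, adjusted p = 0.772), and the pair summed to 29.5 ± 3.16 and 32.2 ± 2.26 CPM (SD, n = 8 each, exact permutation test, 2-sided, p = 0.0740). Gm8615, a copy of Gnpda1 and also chosen after its values were seen, was at 0.123 to 1.03 CPM in CON-SI (median 0.649) and at 1.05 to 1.73 CPM in exGF-SI (median 1.30), without overlap, with a log2 difference of 1.31 (SE 0.308, adjusted p = 0.0703) that was lost with the GC correction (adjusted p = 0.119). Gnpda1, a deaminase that turns glucosamine 6-phosphate into fructose 6-phosphate, was at 5.42 to 14.9 CPM in CON-SI (median 9.46) and at 4.21 to 6.51 CPM in exGF-SI (median 5.37), and differed by -0.88 (SE 0.154, adjusted p = 0.0171). The pair summed to 10.5 ± 2.61 CPM in the CON-SI libraries and to 6.72 ± 0.749 CPM in the exGF-SI libraries (each SD, n = 8, exact permutation test, 2-sided, p = 9.32e-04). The naïve difference of Gnpda1 was -0.25 (SE 0.206).

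Tpm3, a tropomyosin that coats actin filaments, was at 62.3 to 125 CPM in CON-SI (median 82.2) and at 79.4 to 187 CPM in exGF-SI (median 163), a log2 difference of 0.75 (SE 0.163, adjusted p = 0.0513) beside 0.71 (SE 0.239) in naïve mice. Its copy Tpm3-rs7, chosen after its values were seen, was at 26.3 to 59.1 CPM in CON-SI (median 51.5) and at 1.23 to 46.1 CPM in exGF-SI (median 14.9), with a log2 difference of -1.42 (SE 0.581, adjusted p = 0.283). Tpm3-rs7 fell into separate levels, with 4 exGF-SI libraries at 1.23 to 2.22 CPM and the other 4 at 27.6 to 46.1 CPM. Where Tpm3-rs7 was highest in exGF-SI, in exGF-S7, Tpm3 was lowest. The pair summed to 137 ± 14.0 CPM in the CON-SI libraries and to 169 ± 21.8 CPM in the exGF-SI libraries (each SD, n = 8, exact permutation test, 2-sided, p = 0.00715). Gm10260, a copy of the ribosomal protein gene Rps18, was at 10.1 to 13.5 CPM in CON-SI (median 11.3) and at 4.56 to 8.58 CPM in exGF-SI (median 6.85), without overlap, and differed by -0.78 (SE 0.117, adjusted p = 0.00675). Rps18 differed by -0.04 (SE 0.0740, adjusted p = 0.869), and the pair summed to 43.3 ± 4.39 CPM in CON-SI libraries and 37.7 ± 3.64 CPM in exGF-SI libraries (SD, n = 8 each, exact permutation test, 2-sided, p = 0.0172). Naïve pools of Gm10260 were at 2.83 to 11.3 CPM in CON and at 4.02 to 11.3 CPM in exGF, a log2 difference of 0.24 (SE 0.246). Gm13835, whose sequence is found whole within transcripts of the proteasome gene Psma3, differed by 1.08 (SE 0.276, adjusted p = 0.0876) and lost its call with the GC correction (adjusted p = 0.233). Together with Psma3 it summed to 58.6 ± 3.97 CPM in CON-SI libraries and 71.4 ± 5.21 CPM in exGF-SI libraries (SD, n = 8 each), with a 2-sided p of 1.55e-04, the smallest that the exact permutation test can give.

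Genes of the choroid plexus, the epithelium that secretes cerebrospinal fluid into the ventricles, held the 3 largest rises among the called protein-coding genes. Of the 22 markers 15 were tested, and 3 were called, each higher (0.844% of all genes were called higher), 11 had an unadjusted p under 0.05, and the median log2 difference was 1.38. Ttr, which carries thyroxine and retinol-binding protein in the fluid, was at 24.9 to 63.4 CPM in CON-SI (median 32.6) and at 21.7 to 1369 CPM in exGF-SI (median 50.2). The 3 highest libraries, exGF-S4, exGF-S7 and exGF-S9, were at 854, 747 and 1369 CPM, and the other 5 lay between 21.7 and 51.9 CPM, within the CON-SI range or under it. The log2 difference was 3.37 (SE 0.825, adjusted p = 0.0761). Sostdc1, a secreted antagonist of BMP and Wnt signalling, was at 12.5, 10.1 and 22.8 CPM in the same 3 libraries, at 0.741 to 1.46 CPM in the other 5 and at 0.512 to 1.23 CPM in CON-SI (log2 difference 2.85, SE 0.708, adjusted p = 0.0804). F5, coagulation factor V, was at 16.8, 17.4 and 26.8 CPM in these libraries, at 1.99 to 4.01 CPM in the other 5 and at 1.37 to 3.09 CPM in CON-SI (log2 difference 2.11, SE 0.512, adjusted p = 0.0761).

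All 22 markers together summed to 183 to 345 CPM in CON-SI and to 183 to 2374 CPM in exGF-SI, and none of them was at 0 in all 16 libraries. In the exact permutation test, which a few high libraries move less, Ttr had an unadjusted p of 0.123. Without the 3 libraries Ttr differed by -0.08 (adjusted p = 0.930), Sostdc1 by 0.20 (adjusted p = 0.787) and F5 by 0.45 (adjusted p = 0.435), and 93 genes were called in all. With the GC correction none of the 3 was called (adjusted p = 0.150, 0.162 and 0.150). GF-SI mice had high libraries too. Their 2 highest Ttr levels were 904 and 706 CPM, and the third highest was 67.7 CPM. For F5 the 2 highest GF-SI levels were 28.9 and 17.4 CPM, and the third highest was 4.79 CPM. Among the naïve pools CON-P2 was the highest in Ttr, Sostdc1 and F5. Its Ttr level was 263 CPM, against 25.1 to 77.8 CPM in the other CON pools and 11.8 to 34.8 CPM in the exGF pools, and its 22 markers summed to 601 CPM, against 202 to 364 CPM in the other 7 pools. Drc7, a part of the dynein regulatory complex of motile cilia, followed the same libraries, with 4.76, 5.18 and 6.72 CPM against 0.843 to 2.72 CPM in the other 5, and differed by 1.44 (SE 0.378, adjusted p = 0.0954), or by 0.50 (adjusted p = 0.488) without the 3 libraries, and was not called with the GC correction (adjusted p = 0.163). Ependyma markers, of the ciliated lining of the ventricles, had 0 of 6 tested genes called by edgeR and 1 by DESeq2, with 3 under an unadjusted p of 0.05, and summed to 11.2 to 13.7 CPM in CON-SI and 10.7 to 30.1 CPM in exGF-SI. More choroid plexus tissue in a dissected piece and more RNA per cell cannot be told apart in bulk RNA, here or in any marker list.

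**Figure D5:**
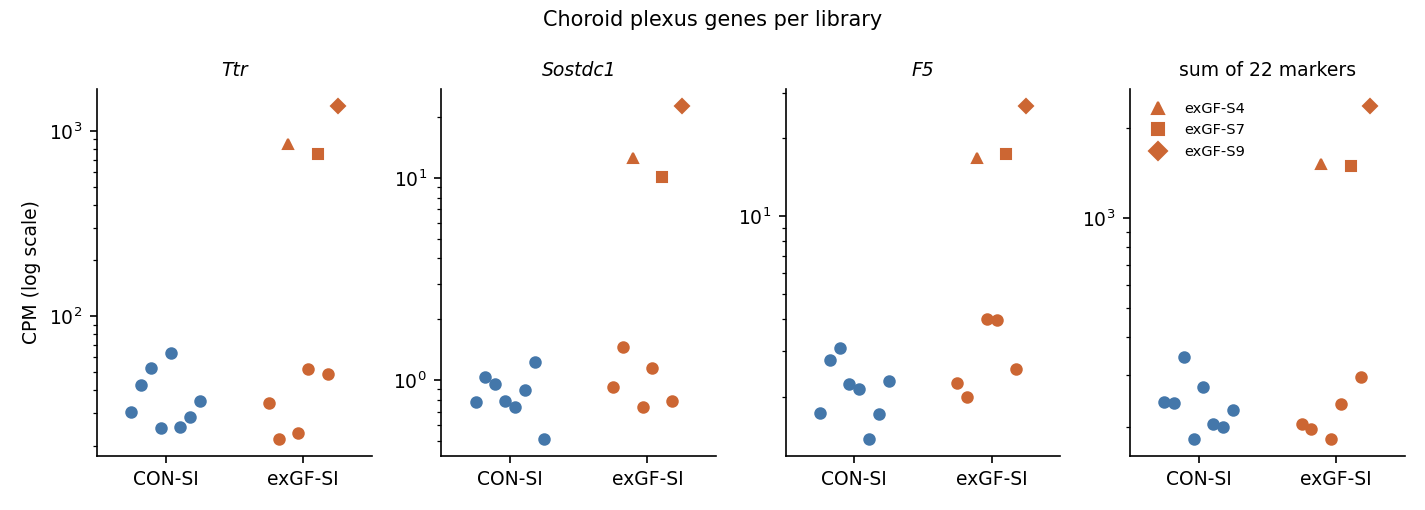
Level (CPM, log scale) of Ttr, Sostdc1, F5 and the sum of the 22 choroid plexus markers in the 8 CON-SI and 8 exGF-SI libraries, with exGF-S4, exGF-S7 and exGF-S9 as triangle, square and diamond. These 3 libraries lie well above the others in each panel, and the other 5 lie near CON-SI.

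Of the 17 microglia markers 1 was called lower (5.88% beside 0.462% of all genes), Cx3cr1, the receptor by which microglia sense the neuronal chemokine fractalkine. It was at 23.1 to 24.3 CPM in CON-SI (median 23.8) and at 14.9 to 20.7 CPM in exGF-SI (median 18.4). The groups did not overlap, the CON-SI libraries were closely alike, and the log2 difference was -0.38 (SE 0.0630, adjusted p = 0.0115), also called with the GC correction and without the 3 libraries rich in choroid plexus genes. Naïve pools were at 23.7, 22.1, 26.4 and 28.1 CPM in CON and at 27.0, 26.8 and 28.7 CPM in 3 exGF pools, with exGF-P1 below all 7 others, a log2 difference of 0.02 (SE 0.158). The summed level of all 17 markers, Cx3cr1 included, was 319 to 374 CPM in CON-SI and 301 to 373 CPM in exGF-SI. The median log2 difference of the 17 was -0.13 (-0.05 with the GC correction), 5 were lower and 2 higher at an unadjusted p under 0.05, and DESeq2 called 2 lower and 1 higher. C1qb, a chain of complement C1q, had a log2 difference of -0.41 (SE 0.132, adjusted p = 0.162), and Ctss, a lysosomal protease of microglia, 0.24 (SE 0.0760, adjusted p = 0.156).

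2 genes of the lysosome of immune cells, in none of the gene lists, were picked from the 69 called lower after their values were seen. They are therefore no further evidence on microglia markers, and what share of lysosomal genes was called was not counted. Laptm5, a lysosomal membrane protein of blood-derived cells and microglia, was at 6.52 to 13.5 CPM in CON-SI (median 8.52) and at 3.96 to 7.86 CPM in exGF-SI (median 4.81), a log2 difference of -0.87 (SE 0.172, adjusted p = 0.0368) beside -0.48 (SE 0.216) in naïve mice. Ctsh, the protease cathepsin H, was at 3.87 to 7.51 CPM in CON-SI (median 6.07) and at 2.18 to 4.76 CPM in exGF-SI (median 3.77), a log2 difference of -0.69 (SE 0.168, adjusted p = 0.0761) that lost its call with the GC correction (adjusted p = 0.145). In the complement list 0 of 12 genes were called by edgeR and 1 by DESeq2, with 3 under an unadjusted p of 0.05, all lower, and C3ar1, chosen after its values were seen, had the smallest adjusted p (-0.76, SE 0.219, adjusted p = 0.123). Of 26 interferon-stimulated genes 0 were called by either tool and 2 were under an unadjusted p of 0.05, and of 12 genes of MHC class I and antigen processing 0 were called by edgeR and 1 by DESeq2, with 1 under an unadjusted p of 0.05.

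Among 79 ribosomal protein genes 4 were called lower and 1 higher (6.33% beside 1.31% of all genes), with a median log2 difference of -0.06. Besides Rpl7a and Rpl21, the called genes were Rpl35, Rpl18 and Rps29. Rpl35 was at 88.5 to 111 CPM in CON-SI (median 97.6) and at 67.7 to 93.4 CPM in exGF-SI (median 71.5), and differed by -0.40 (SE 0.0663, adjusted p = 0.0113). Its naïve pools lay at 73.0 to 129 CPM in CON and at 99.3 to 139 CPM in exGF, so the naïve difference of 0.13 (SE 0.122) had the other sign. Rpl18 differed by -0.39 (SE 0.0895, adjusted p = 0.0633) and Rps29 by -0.42 (SE 0.103, adjusted p = 0.0761), and both lost their calls with the GC correction. The summed level of the 79 genes was 6554 to 7762 CPM in CON-SI and 6416 to 7916 CPM in exGF-SI, with the higher Rpl21 included. Of the 79 genes 54 had a log2 difference under 0, against 7836 of all 14937 genes. At an unadjusted p under 0.05, 20 were lower and 5 higher, against 985 and 1037 of all genes. DESeq2 called 10 lower and 2 higher, against 207 and 351 of all genes. Of 75 nuclear genes of the respiratory chain 3 were called (4.00% beside 1.31%), with a median of -0.02. Uqcrc1, a core subunit of complex III, was at 124 to 194 CPM in CON-SI (median 149) and at 89.8 to 128 CPM in exGF-SI (median 109), a log2 difference of -0.49 (SE 0.0914, adjusted p = 0.0248) beside 0.17 (SE 0.176) in naïve mice. Cox6a1, a subunit of complex IV, differed by -0.69 (SE 0.144, adjusted p = 0.0486), and Uqcrb, another subunit of complex III, by 0.39 (SE 0.0833, adjusted p = 0.0497). With the GC correction Uqcrc1 kept its call and the other two did not.

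Replication-dependent histones have short mRNAs that end in a stem-loop in place of a poly(A) tail. Their log2 differences were under 0 in 14 of 15 genes tested, against 7836 of 14937 over all genes. The median log2 difference of the 15 was -0.31, against -0.009 over all genes. Of the 15, 1 was called lower (6.67% beside 0.462%), and 3 by DESeq2. Hist3h2ba, a histone H2B gene, was at 6.14 to 13.9 CPM in CON-SI (median 8.01) and at 3.10 to 6.82 CPM in exGF-SI (median 5.0), a log2 difference of -0.90 (SE 0.186, adjusted p = 0.0485). 2 exGF-SI libraries lay above the lowest of CON-SI, and 3 CON-SI libraries stood out at 12.0 to 13.9 CPM. Naïve pools were at 5.95 to 11.5 CPM in CON and at 9.69 to 11.8 CPM in exGF, a log2 difference of 0.22 (SE 0.291). 42.0% of the stretches of 25 bases of Hist3h2ba are shared with other histone genes. Of the list, 6 genes had an unadjusted p under 0.05, all lower, and the median with the GC correction was -0.32.

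The genes called higher had a median level of 51.5 CPM over the libraries compared, against 16.5 CPM in all genes tested. Akirin2, a nuclear protein needed for import of proteasomes and for inflammatory transcription, was chosen after its values were seen. It was at 19.7 to 29.4 CPM in CON-SI (median 24.7) and at 28.9 to 37.9 CPM in exGF-SI (median 33.7), a log2 difference of 0.47 (SE 0.0900, adjusted p = 0.0289) that was called with the GC correction too (adjusted p = 0.0481). The naïve difference was -0.10 (SE 0.130). Dek, a chromatin protein, was at 45.5 to 63.6 CPM in CON-SI (median 52.9) and at 62.2 to 77.3 CPM in exGF-SI (median 72.2), and differed by 0.39 (SE 0.0687, adjusted p = 0.0173) beside -0.07 (SE 0.116) in naïve mice. Exosc9, a subunit of the RNA exosome, was at 23.1 to 25.9 CPM in CON-SI and at 27.6 to 33.9 CPM in exGF-SI without overlap, a log2 difference of 0.30 (SE 0.0555, adjusted p = 0.0227) beside 0.01 (SE 0.0979) in naïve mice.

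Rbm3, an RNA-binding protein that rises on cooling, was the 1 gene called of 4 in the list of cold-inducible RNA-binding proteins (0.844% of all genes were called higher), with 23.7 to 41.4 CPM in CON-SI (median 34.4) and 33.8 to 56.3 CPM in exGF-SI (median 46.4). Its log2 difference of 0.46 (SE 0.116, adjusted p = 0.0876) was not called with the GC correction (adjusted p = 0.242), and Cirbp, the other cooling-induced protein of the family, differed by 0.14 (SE 0.0737, adjusted p = 0.431). Psma3, a subunit of the proteasome core, was the 1 called of 31 proteasome genes (3.23% beside 0.844% of all genes called higher) and differed by 0.26 (SE 0.0547, adjusted p = 0.0486), without a call after the GC correction (adjusted p = 0.354), while the median of that list was 0.00. Zinc finger genes named Zfp with a number, a group chosen after its values were seen, had 7 of 329 called, each higher (2.13% beside 0.844%), and 0 called with the GC correction. Zfp942 was at 21.9 to 30.4 CPM in CON-SI (median 26.7) and at 34.1 to 46.0 CPM in exGF-SI (median 35.1), without overlap, a log2 difference of 0.44 (SE 0.0787, adjusted p = 0.0192) that was lost with the correction (adjusted p = 0.150). On the X chromosome 17 of 526 genes were called, each higher (3.23%). On the other chromosomes 109 of 14411 genes were called higher and 69 lower (1.24% in either direction). The genes of the X chromosome had a median GC content of 45.8% against 50.0%, and their calls with the GC correction were not counted. The count on the X chromosome was chosen after its values were seen as well.

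Genes of several unrelated kinds stood among the larger falls. AA465934, annotated as a processed transcript, was at 7.93 to 16.3 CPM in CON-SI (median 14.2) and at 0.925 to 7.54 CPM in exGF-SI (median 1.33). The groups did not overlap, 6 exGF-SI libraries were at 1.66 CPM or less and exGF-S3 and exGF-S7 were at 7.43 and 7.54 CPM. The log2 difference was -2.27 (SE 0.412, adjusted p = 0.0208), and that of naïve mice -0.82 (SE 0.591). Ttpa, the transfer protein for vitamin E, was at 2.26 to 7.08 CPM in CON-SI (median 5.57) and at 2.01 to 2.85 CPM in exGF-SI (median 2.29), a log2 difference of -1.09 (SE 0.179, adjusted p = 0.0113) beside -0.61 (SE 0.307) in naïve mice. Slc6a12, a transporter for betaine and GABA, was at 0.401 to 8.09 CPM in CON-SI (median 3.09) and at 0.920 to 2.07 CPM in exGF-SI (median 1.19), a log2 difference of -1.51 (SE 0.367, adjusted p = 0.0761) that was lost with the GC correction (adjusted p = 0.152). Stbd1, which tethers glycogen to membranes, was at 1.10 to 2.14 CPM in CON-SI (median 1.51) and at 0.247 to 1.00 CPM in exGF-SI (median 0.737), without overlap, a log2 difference of -1.14 (SE 0.238, adjusted p = 0.0486). Tmprss7, a membrane-bound serine protease, differed by -1.14 (SE 0.238, adjusted p = 0.0486), and Cited4, a coactivator that binds CBP and p300, by -0.92 (SE 0.203, adjusted p = 0.0520), the latter without a call after the GC correction (adjusted p = 0.188).

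Cwc22, a spliceosome protein that loads the exon junction complex, was called lower on 4 CON-SI libraries. These, CON-S3, CON-S6, CON-S10 and CON-S12, were at 138 to 230 CPM, while the other 4 were at 26.7 to 30.9 CPM and all exGF-SI libraries at 27.5 to 34.2 CPM. The log2 difference was -1.82 (SE 0.444, adjusted p = 0.0761), the exact permutation test gave an unadjusted p of 0.0724, and 27.3% of the stretches of 25 bases of Cwc22 are shared with nearby copies. Before social interaction the pools were at 27.7 to 41.2 CPM in CON and at 27.4 to 31.7 CPM in exGF. Timp4, an inhibitor of metalloproteinases chosen after its values were seen, was at 9.98 to 18.0 CPM in CON-SI (median 11.9) and at 4.60 to 10.5 CPM in exGF-SI (median 8.40), a log2 difference of -0.67 (SE 0.159, adjusted p = 0.0706), and in naïve mice it lay the other way at 0.33 (SE 0.216). Gm17322, a long non-coding RNA, differed by -1.63 (SE 0.426, adjusted p = 0.0948). Slfn8, of the schlafen family, was at 0.134 to 1.04 CPM in CON-SI (median 0.434) and at 0.613 to 2.76 CPM in exGF-SI (median 1.63), a log2 difference of 1.59 (SE 0.384, adjusted p = 0.0761). Cwc22, Timp4, Gm17322 and Slfn8 lost their calls with the GC correction (adjusted p = 0.122, 0.122, 0.182 and 0.153).

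Lists of genes that answer neuronal activity held no call. Of 25 immediate early genes 0 were called by edgeR or DESeq2 and 2 had an unadjusted p under 0.05. The median log2 difference was 0.14 (0.24 with the GC correction), with 18 of the 25 above 0, against 7101 of all 14937 genes. Fos was at 15.8 to 40.3 CPM in CON-SI (median 24.2) and at 16.9 to 54.1 CPM in exGF-SI (median 35.5), a log2 difference of 0.40 (95% interval -0.09 to 0.89, adjusted p = 0.506). Egr1 differed by 0.34 (SE 0.172, adjusted p = 0.396) after social interaction and by 0.99 (SE 0.283) in naïve mice. Egr3 differed by -0.16 (SE 0.229, adjusted p = 0.811), Ier5 by -0.04 (SE 0.248, adjusted p = 0.964) and Klf10, with the smallest p of the list, by 0.33 (SE 0.127, adjusted p = 0.242). In each of these genes the ranges of the groups overlapped. Of 24 activity-induced effector genes 0 were called by either tool and 0 had an unadjusted p under 0.05, with a median of 0.13. Dnajb6, a co-chaperone, differed by 0.11 (SE 0.0925, adjusted p = 0.636), and Hspa8, the constitutive HSP70, by 0.20 (SE 0.0695, adjusted p = 0.192). D030028A08Rik differed by -1.05 (SE 0.364, adjusted p = 0.196), at 3.93 to 9.96 CPM in CON-SI and 0.804 to 6.55 CPM in exGF-SI, and by -2.29 (SE 0.657) in naïve mice.

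The lists of splicing genes held no call by edgeR. Of 26 SR proteins and splicing regulators 0 were called by edgeR and 1 by DESeq2. At an unadjusted p under 0.05 there were 7, all higher, against 1037 higher of all 14937 genes. The median log2 difference of the list was 0.12, falling to 0.05 with the GC correction. Srsf3, an SR protein, was at 104 to 128 CPM in CON-SI (median 119) and at 127 to 142 CPM in exGF-SI (median 133), a log2 difference of 0.18 (SE 0.0483, adjusted p = 0.108). Of 27 hnRNP, FET and paraspeckle proteins 0 were called by either tool and 5 had an unadjusted p under 0.05. Their median was 0.12 (0.11 with the GC correction), and 25 of the 27 lay above 0, against 7101 of all 14937 genes. Of 40 core spliceosome genes 0 were called by edgeR and 2 by DESeq2, 10 had an unadjusted p under 0.05, 6 of them lower, and the median was -0.02. In all, 36 of the 45 gene lists had no gene called by edgeR. They held 614 memberships tested, of which 67 had an unadjusted p under 0.05, while 2022 of all 14937 genes tested did (13.5%). DESeq2 called 558 genes in all, and 10 memberships in 9 of these lists. The 36 lists without an edgeR call included those that follow. The median was -0.02 in 25 genes of social and stress neuropeptides and their receptors. It was -0.00 in 11 serotonin receptors, 0.01 in 28 glutamate receptors and scaffolds and -0.00 in 20 genes of GABA receptors and synthesis. It was -0.02 in 21 genes of the unfolded protein response, 0.04 in 19 glucocorticoid-induced genes and -0.03 in 21 clock genes.

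Whether a difference after social interaction was another than that in naïve mice was tested as the difference between the responses of exGF and of CON mice, over all 40 libraries. 0 of 16111 genes were called by edgeR (0%), 939 had an unadjusted p under 0.05 (5.83%), and DESeq2 called 1. That gene, Kcnj16, an inwardly rectifying potassium channel, was chosen after its values were seen. It was at 11.5 to 22.3 CPM in naïve CON and 6.90 to 8.78 CPM in naïve exGF, and at 5.41 to 10.7 CPM in CON-SI and 5.34 to 13.0 CPM in exGF-SI. The naïve groups stood apart and the groups after social interaction overlapped, with a difference between responses of 1.48 on the log2 scale (SE 0.288, adjusted p = 0.129 by edgeR). For Gm22009 the difference between responses was 1.41 (SE 0.350, unadjusted p = 2.54e-04, adjusted p = 0.719), for Akirin2 0.57 (SE 0.157, adjusted p = 0.719), for Gm10260 -1.02 (SE 0.298, adjusted p = 0.719) and for Cx3cr1 -0.39 (SE 0.193, adjusted p = 0.847). For Mid1, Coq2, Pign and Rpl7a it was 0.17 (SE 0.572), 0.02 (SE 0.236), -0.03 (SE 0.150) and -0.02 (SE 0.252). A difference that was called after social interaction and not in naïve mice is therefore not shown to be larger after social interaction for any of these genes.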

How the data were processed

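The authors deposited raw read pair counts per gene, whole numbers without scaling, for 43629 genes in 40 libraries. Per the labels and the study's methods, RNA depleted of ribosomal RNA was made into stranded libraries and read from both ends (100 bases). Reads were called with CASAVA, trimmed with Trimmomatic 0.32 and aligned to GRCm38.p3 with STAR 2.4.0f1. They were counted on Ensembl release 78 with HTSeq 0.6.0 without strand, in its intersection-nonempty mode. Strand was thus not used to tell reads of overlapping antisense genes apart (31.8% of called and 31.0% of tested genes have such a partner). The authors' own DESeq2 comparisons were not used.

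Here exGF-SI and CON-SI were compared with edgeR 4.0.16 in R 4.3.3 (quasi-likelihood F-test, TMM, filterByExpr, Benjamini-Hochberg adjustment, threshold 0.1). SE is the log2 difference over the square root of F. Naïve differences and differences between responses were contrasts in 1 fit over the 6 groups, and GF-SI values share the CON-SI libraries. Exact permutation tests were 2-sided on log2(CPM + 1) over 12870 arrangements, the smallest p being 1.55e-04. Alternatives were DESeq2 1.42.0, RLE scaling, no filter, robust dispersion, 1 fit, a correction for GC content and length (splines with 5 degrees of freedom per library, 99.3% of genes) and leaving out libraries. The GC correction rests on GENCODE vM21 exons. The tests were tried on simulated data. No 2 libraries of a group were alike within counting noise (smallest chi-square per degree of freedom 8.01).

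The members and lists were chosen with earlier results of these data known. With a mean of at least 1 CPM, the genes named were the 15 largest rises and falls, the 8 smallest p in each direction, called list members or up to 3 of smallest p, genes the study names, and 2 ribosomal RNA genes. Not every such gene is reported, and 1 is left out here.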

Additional observations from a re-analysis of the deposited data

Results flagged for a closer look

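A sample far from the rest of its group of 8 was looked for in 176 sets of values, and 18 were found. Chance alone gives about 1 in 20 for independent sets of normally distributed values. CPM values were not log-transformed here and some sets are related, so this rate need not hold. Of the 18, 4 were in exGF-S7, beside those of CON-S7 in the same quantities. Ribosomal RNA was high in both: Gm42418 was at 110640 CPM in exGF-S7 and at 12999 CPM in CON-S7, mt-Rnr1, the small mitochondrial ribosomal RNA, at 37082 CPM and 10703 CPM, and mitochondrially encoded genes took 17.0% and 12.4% of the counts. In exGF-S7 Pign was low, at 14.8 CPM.

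Among the called genes, Rpl7a was at 77.1 CPM in exGF-S6, Mid1 at 6.54 CPM in CON-S3, Rpl21 at 395 CPM in CON-S11, Gm9392 at 0.799 CPM in CON-S11 and Zfp942 at 46.0 CPM in exGF-S10, each above the other 7 of its group. In 4 genes that were not called, Ier5 was at 73.7 CPM in exGF-S8, H2-T22, an MHC class I gene, at 4.46 CPM in CON-S6, Col8a2, a collagen, at 18.9 CPM in exGF-S9, which is also the library highest in choroid plexus markers, and Kcnj16 at 10.7 CPM in CON-S2 and 13.0 CPM in exGF-S5. The summed level of oligodendrocyte markers was 3973 CPM in exGF-S8, against 1365 to 2483 CPM in the other exGF-SI libraries and 1036 to 4217 CPM in CON-SI.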

How the results depend on the processing

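The count of 195 genes called for exGF-SI over CON-SI was 206 with RLE scaling, 184 with robust dispersion, 145 without a filter on low counts (83 higher and 62 lower, against 126 and 69) and 200 without exGF-S7. It was 558 with DESeq2 (351 higher, 207 lower), 522 in 1 fit over the 6 groups (324 and 198), 46 with the GC correction and 93 without the 3 libraries high in choroid plexus genes, an alternative chosen after seeing the data. Leaving out 1 library gave 57 (without exGF-S10) to 364 (without CON-S7), and 66 to 121 without CON-S3, CON-S5, CON-S10, CON-S11, CON-S12, exGF-S6 or exGF-S9. Past 0.5 on the log2 scale there were 140 with DESeq2, 132 in 1 fit, 25 with the GC correction, 33 without the choroid libraries and 29 to 82 with 1 library left out. Of the 47 called genes among those named by rule, 25 were called with the GC correction, 25 without the choroid libraries, 26 in the exact permutation test and 30 to 46 with 1 library left out. Gene lists with a call, 9, were 18 with DESeq2, 16 in 1 fit, 5 with the GC correction and 6 to 13 with 1 library left out. The naïve count of 9 was 16 with DESeq2, 15 in a fit of the 8 naïve libraries alone, 0 without the pools rich in ribosomal RNA and 1 to 11 with 1 library left out, at 1 to 4 without exGF-P3, exGF-P1, CON-P3, CON-P1 or exGF-P2. For the difference between responses the count of 0 was 1 with DESeq2 and 0 to 1 with 1 library left out.

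Reversed were Ttr (-0.08) and Ier5 (0.04) without the choroid libraries, Ier5 also without CON-S10 (0.05), CON-S11 (0.05), CON-S3 (0.03) or exGF-S5 (0.06), Gm42418 and mt-Rnr1 with DESeq2 (-0.31, -0.21), without exGF-S7 (-2.42, -1.0) and without the choroid libraries (-2.27, -0.81), mt-Rnr1 in the permutation test (-0.01), and Rap1a (-0.07) and Rps18 (0.02) with the GC correction. With 1 library left out Ier5 ranged from -0.23 to 0.06, Gm42418 from -2.42 to 4.88 and mt-Rnr1 from -1.0 to 1.86. Ttr alone of these was called. The cause was not tested. No paired analysis was possible because the columns of the count table carry no replicate numbers of the labels.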
